A study of Homo sapiens with 27 samples.

Results

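GAS6, GAS6-AS2, PROS1, AXL, TYRO3 and MERTK encode the ligands and receptors of the TAM family, together with the long non-coding RNA gene that starts beside GAS6. They were selected by symbol and are 6 of the 26255 genes in each expression table. The set was chosen because GAS6 stood out in 5-FU-resistant HCT116 cells. The values of that group against the other HCT116 groups are therefore given as a description with no test. The untreated HCT116 libraries took part in that choice, so tests of GAS6 that use them are not independent of it. RNA-seq libraries were made from 3 human colorectal cancer (CRC) cell lines, HCT116, SW480 and DLD-1. Each line was grown in 3 states. 5-FU res cells had been kept in 5 to 70 µM 5-fluorouracil, a pyrimidine analogue, for about 6 months. OX res cells had been kept in 5 to 35 µM oxaliplatin, a platinum drug, for about 6 months. WT cells of the same line were untreated. Each of the 9 groups had 3 libraries, 27 in all. The sources used here state neither separate cultures for the 3 libraries nor cloning of a resistant population. The p-values therefore describe the spread among libraries alone, and that spread may be technical.

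TAM receptors (TYRO3, AXL and MERTK) are transmembrane tyrosine kinases. Their ligands GAS6 and protein S, encoded by PROS1, carry a Gla domain that must be γ-carboxylated with the help of vitamin K before it can bind phosphatidylserine on membranes, and their other end binds the receptor. GAS6 can engage all of the receptors, whereas protein S is known mainly as a ligand of TYRO3 and MERTK. In phagocytes this system clears dying cells, and in carcinoma cells AXL is known for its association with a mesenchymal state and with resistance to therapy.

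GAS6 lies on chromosome 13 at 114523522 to 114567049 on the minus strand of GRCh37, and GAS6-AS2 at 114567085 to 114569807 on the plus strand. The pair run head to head, with annotated starts 36 bases apart and no overlap between the genes. AXL lies at 41725128 to 41767671 of chromosome 19, TYRO3 at 41849873 to 41875787 of chromosome 15 and MERTK at 112656184 to 112787138 of chromosome 2, all on the plus strand. PROS1 lies at 93591895 to 93698847 of chromosome 3, on the minus strand. The promoter windows of GAS6 and AXL are shown, the first because it faces both GAS6 and GAS6-AS2 and the second because AXL separated the lines most widely. Each window has 300 bases, 250 before and 50 after the RefSeq start in GRCh38.p14, printed 5′ to 3′ on the gene's strand. Capitals mark GGGCGG on either strand, the core of the GC box read by SP1-type factors.
GAS6, chr13:113864027-113864326 (minus strand): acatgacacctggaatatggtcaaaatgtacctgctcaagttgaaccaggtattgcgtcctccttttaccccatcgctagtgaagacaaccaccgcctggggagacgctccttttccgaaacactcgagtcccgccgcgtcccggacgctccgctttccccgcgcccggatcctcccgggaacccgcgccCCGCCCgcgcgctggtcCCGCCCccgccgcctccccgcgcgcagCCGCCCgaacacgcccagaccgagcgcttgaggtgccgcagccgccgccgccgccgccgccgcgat
AXL, chr19:41218973-41219272 (plus strand): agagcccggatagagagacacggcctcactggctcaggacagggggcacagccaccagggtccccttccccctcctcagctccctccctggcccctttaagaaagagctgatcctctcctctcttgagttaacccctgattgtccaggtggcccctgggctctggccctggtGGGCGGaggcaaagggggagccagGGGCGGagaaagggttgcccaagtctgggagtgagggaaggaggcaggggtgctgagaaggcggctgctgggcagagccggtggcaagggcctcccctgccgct
The GAS6 window held 3 such matches and 42 CpG dinucleotides, against 2 matches and 7 CpG in the first AXL window. Across 35116 promoter windows of the same length, the motif was in 45.0% and the median window held 14 CpG. In this annotation the starts of GAS6 and GAS6-AS2 were 101 bases apart, and their windows shared 200 bases. TGANTCA, an AP-1 motif in 7.7% of windows, and CATTCC, a TEAD motif in 14.0%, were absent from both printed windows. A second AXL window, not printed, held 1 CATTCC match, 0 GGGCGG matches and 17 CpG. These matches describe the letters only.

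Expression was deposited as FPKM, reads scaled by transcript length and library size, and each value was divided by the sum of its library to give TPM, the share of a library's transcripts scaled to the same total in every library. FPKM sums were 451767 to 804635, and the deepest library was 1.57-fold deeper than the shallowest, as judged from the steps between low values. Library pairs of a group correlated at 0.991 to 0.995 across genes. The sum of 10 colorectal epithelial markers was 5703 to 21024 TPM, and KRT8 (2608 to 10611 TPM) and KRT18 (1553 to 7676 TPM) reached the highest values. CDX1 and VIL1 were at 0 in all HCT116 OX res and WT libraries. CDX1 was also at 0 in all HCT116 5-FU res, SW480 WT and SW480 OX res libraries, and CDH17 in all SW480 OX res libraries. PTPRC, the pan-leukocyte marker, did not exceed 0.116 TPM and DCN, a fibroblast marker, did not exceed 0.223 TPM in any library. Other markers of these lists were higher: LYZ reached 7.15, CD14 4.85 and ITGAM 2.43 TPM. Among fibroblast markers COL1A1 reached 17.6 TPM and the others at most 0.335 TPM. The summed TPM of 8 leukocyte markers was 60.5 to 74.2 in HCT116 OX res and 18.3 to 19.2 in HCT116 WT cells, and that of 7 fibroblast markers was 15.3 to 17.8 and 6.19 to 6.85 in the same groups. In SW480 the leukocyte sum was 28.5 to 31.8 for 5-FU res and 24.7 to 27.7 for OX res cells, against 8.03 to 9.37 in WT cells, and the fibroblast sum was 3.32 to 3.37 and 0.978 to 1.82, against 0.917 to 1.20 in WT cells. CD68, which many cell types express, reached 66.7 TPM and was the most abundant leukocyte marker. The part of these markers in the results was not tested. In bulk RNA, a change in the share of cells and a change in RNA per cell cannot be told apart.

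A difference was called at an adjusted p under 0.05 (limma, Benjamini-Hochberg over all genes tested) and a log2 fold change of TPM + 1 beyond 1. On this scale the median of all genes tested was not at 0 in every comparison. Against WT it was 0.18 (5-FU res) and 0.60 (OX res) for HCT116, 0.44 and 0.36 for SW480, and -0.03 and 0.13 for DLD-1. FPKM sums were 451767 to 502356 in HCT116 OX res cells, against 701434 to 720744 in HCT116 WT cells. With median-of-ratios scaling the same medians lay between -0.04 and 0.02. Of the genes called in these 6 comparisons, 54.7% to 91.9% were higher in the resistant cells, against 43.3% to 64.7% with median-of-ratios scaling. Member changes are therefore also given relative to the median gene where this alters the reading.

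PROS1 rose in HCT116 OX res cells and in both resistant sets of SW480, and it fell in DLD-1 OX res cells. In HCT116 OX res cells, 5 of 6 members were called higher (GAS6, GAS6-AS2, PROS1, AXL and MERTK), where 33.3% of all 14010 genes tested were called and the median gene was at 0.60. With median-of-ratios scaling GAS6-AS2 (2.08) and PROS1 (1.60) remained higher there and TYRO3 (-1.15) was called lower. GAS6-AS2 met the filter through the resistant libraries alone, and the GAS6 test uses WT libraries that took part in choosing the set. PROS1, AXL and MERTK were the calls without these limits. With median-of-ratios scaling AXL (0.74) and MERTK (0.80) were under the fold threshold. In HCT116 5-FU res cells the values of 4 of 6 members were past both thresholds, beside 15.4% of all genes, and nothing is read from that count because this contrast chose the set. PROS1, one of the 4, was at 0.95 with quantile normalization. In SW480 cells PROS1 was the 1 of 6 members called with either drug, beside 21.2% of 14039 genes for 5-FU res and 15.0% for OX res. It met the filter there through the resistant libraries alone, so these calls depend on the groups where it was high. In DLD-1 cells limma called 0 of 5 tested members in 5-FU res cells, where 3.88% of 13467 genes were called. There 3 of 5 had an unadjusted p under 0.05, and all 5 log2 fold changes lay between -0.34 and 0.67. AXL was among the 3 and gave the 0.67, but it met the filter through the 5-FU res libraries alone. In DLD-1 OX res cells PROS1 was the 1 member of 5 called, beside 3.61% of genes. The median log2 fold change of the members was 1.43 for OX res in HCT116. For 5-FU res and OX res it was 0.93 and 0.40 in SW480, and -0.03 and 0.13 in DLD-1. The OX res value of HCT116, which includes GAS6 and GAS6-AS2, and the 5-FU res value of SW480 exceeded the median of all genes. The other medians were within 0.1 of it. The 2 comparisons of a line share its WT libraries.

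**Figure D1:**
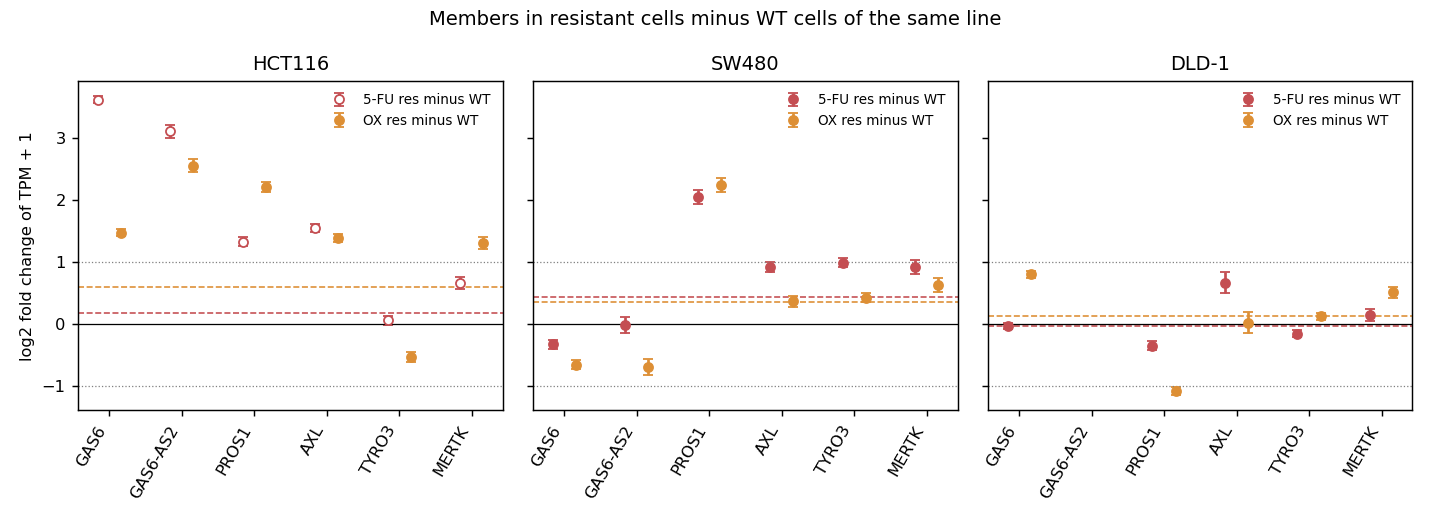
Log2 fold change of TPM + 1 for each member in 5-FU res (red) and OX res (orange) cells minus WT cells, 1 panel per line, with bars of 1 standard error of the limma fit (3 libraries per group). Open circles mark the contrast that chose the members, coloured dashed lines the median of all genes tested, and dotted lines the fold threshold; PROS1 stands above 2 in both SW480 sets and below -1 in DLD-1 OX res cells, and GAS6-AS2 was below the filter in DLD-1.

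GAS6, the ligand of all TAM receptors, reached 363, 335 and 344 TPM in HCT116 5-FU res cells and 76.3, 74.2 and 82.0 TPM in HCT116 OX res cells, against 28.9, 25.5 and 27.5 TPM in HCT116 WT cells. No 2 of these groups overlapped. The mean of 5-FU res cells was 12.7-fold that of WT cells and 4.48-fold that of OX res cells, values that chose this set. In HCT116 OX res cells GAS6 rose by a log2 fold change of 1.47 ± 0.06 (SE, n = 3 libraries per group, limma adjusted p = 4.2e-10). That was 0.88 above the median gene. With FPKM as deposited or median-of-ratios scaling the change was 0.90 or 0.82, under the fold threshold, against 1.06 with quantile normalization. The WT libraries of this comparison took part in choosing the set, so its p-value is not independent of that choice.

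In SW480 cells GAS6 did not follow HCT116. It stood at 60.7, 54.5 and 58.0 TPM in 5-FU res cells and at 42.5, 49.0 and 45.6 TPM in OX res cells, against 69.3, 76.6 and 71.2 TPM in WT cells. All resistant libraries were below all WT libraries. The log2 fold changes were -0.32 ± 0.07 for 5-FU res (limma adjusted p = 0.0015) and -0.65 ± 0.07 for OX res cells (limma adjusted p = 1.4e-05), both short of the fold threshold. Relative to the median gene the OX res value was -1.02, and it was past the threshold with FPKM as deposited (-1.07) and median-of-ratios scaling (-1.10) but not with quantile normalization (-0.88).

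In DLD-1 cells GAS6 was higher in OX res cells alone. GAS6 was 48.3, 51.7 and 49.9 TPM in 5-FU res cells and 94.0, 91.3 and 84.8 TPM in OX res cells, against 48.3, 52.6 and 52.0 TPM in WT cells. The 5-FU res and WT libraries overlapped, whereas every OX res library was above both. The OX res change was 0.81 ± 0.06 (limma adjusted p = 3.2e-07), a 1.77-fold difference in means that did not pass the fold threshold. Between the 2 resistant sets of DLD-1 the difference was -0.84 ± 0.06 for 5-FU res minus OX res (limma adjusted p = 8.9e-08), again under the threshold. In that contrast limma called 0 of 5 members beside 8.52% of all genes, although all 5 had an unadjusted p under 0.05. AXL, among the 5, met the filter through the 5-FU res libraries alone.

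GAS6-AS2 is a long non-coding RNA gene (GAS6-DT in current annotation) whose transcript runs away from GAS6. In HCT116 cells it had 15.5, 14.0 and 14.2 TPM in 5-FU res and 8.82, 10.6 and 9.49 TPM in OX res libraries, against 0.761, 0.667 and 0.997 TPM in WT libraries. Its FPKM divided by the value of 1 read lay within 0.026 of a whole number in all 27 libraries, which gave back the reads behind it. These were 181 to 199 reads per library in 5-FU res, 105 to 130 in OX res and 11 to 17 in WT cells, so the low WT level rested on 40 reads in all. The WT libraries were below 1 TPM, and the gene met the filter for testing through the resistant libraries. Its test therefore depends on the groups where it was high. The rise in OX res cells was 2.56 ± 0.10 on the log2 scale (limma adjusted p = 5.0e-10) and 1.96 above the median gene.

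SW480 cells carried GAS6-AS2 at 11.2, 12.7 and 14.5 TPM in 5-FU res and 8.31, 7.67 and 6.77 TPM in OX res libraries, against 15.1, 11.3 and 12.4 TPM in WT libraries. 5-FU res and WT libraries overlapped (log2 fold change -0.01 ± 0.13, limma adjusted p = 0.94), and OX res libraries lay below both. The OX res change was -0.69 ± 0.13 (limma adjusted p = 5.9e-04), or -1.06 relative to the median gene and past the threshold at -1.10 with median-of-ratios scaling. In DLD-1 cells the gene was near its detection limit, with 1 to 5 reads per 5-FU res library, 4 to 14 per OX res library and 3 to 6 per WT library, and it was below the filter for testing.

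The ratio of GAS6 to GAS6-AS2 in TPM differed between states of HCT116. It was 23.8 ± 0.50 for 5-FU res and 8.11 ± 0.95 for OX res cells, against 34.6 ± 6.1 in WT cells (SD, n = 3). In SW480 cells it was 4.57 ± 0.74, 6.07 ± 0.85 and 5.71 ± 1.1 in 5-FU res, OX res and WT cells. Over the 9 libraries of a line, log2(TPM + 1) of the pair correlated at r = 0.89 in HCT116, 0.73 in SW480 and 0.77 in DLD-1, where few reads lie behind GAS6-AS2. These are descriptions over libraries that fall into 3 groups, and those of HCT116 include the libraries that chose the set.

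PROS1 encodes protein S, which also acts as an anticoagulant cofactor in plasma. It was called in 4 of the 5 tested comparisons with WT. For the SW480 calls PROS1 met the filter through the resistant libraries alone, so the number of calls is not used to rank the members. In HCT116 cells it had 16.8, 16.3 and 17.8 TPM in 5-FU res and 31.3, 32.7 and 32.4 TPM in OX res libraries, against 5.65, 6.10 and 6.75 TPM in WT libraries. Unlike GAS6, it was higher in OX res than in 5-FU res cells, with groups that did not overlap. The OX res rise was 2.21 ± 0.08 (limma adjusted p = 1.3e-10), and it stayed past the threshold under each scaling, at 1.53 to 1.61.

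In SW480 cells PROS1 was near 1 TPM in WT cells only. It had 6.16, 7.71 and 6.72 TPM in 5-FU res and 8.54, 7.39 and 7.93 TPM in OX res libraries, against 0.995, 0.733 and 0.943 TPM in WT libraries. The means were 7.71-fold and 8.93-fold those of WT cells for 5-FU res and OX res. Here too the WT libraries were below 1 TPM and the filter was met through the resistant libraries. The tests of PROS1 against WT in SW480 therefore depend on the groups where it was high. The log2 fold changes were 2.06 ± 0.11 (limma adjusted p = 5.6e-08) and 2.24 ± 0.11 (limma adjusted p = 8.1e-08). The 2 resistant sets overlapped, with a difference of -0.19 ± 0.11 for 5-FU res minus OX res (limma adjusted p = 0.17). In that contrast limma called 0 of 6 members, beside 11.1% of all genes, 5 of 6 had an unadjusted p under 0.05, and the largest difference was 0.68 for GAS6-AS2.

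DLD-1 cells had the most PROS1 of the WT cells and changed in the other direction. The gene stood at 45.8, 46.8 and 39.8 TPM in 5-FU res and 25.1, 27.2 and 25.8 TPM in OX res libraries, against 54.0, 59.6 and 55.0 TPM in WT libraries. Both resistant sets were below WT without overlap. The fall was -1.08 ± 0.07 in OX res cells (limma adjusted p = 1.7e-07), and -1.19 to -1.26 under the other scalings. In 5-FU res cells the value was -0.34 ± 0.07 (limma adjusted p = 0.0014), short of the fold threshold.

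**Figure D2:**
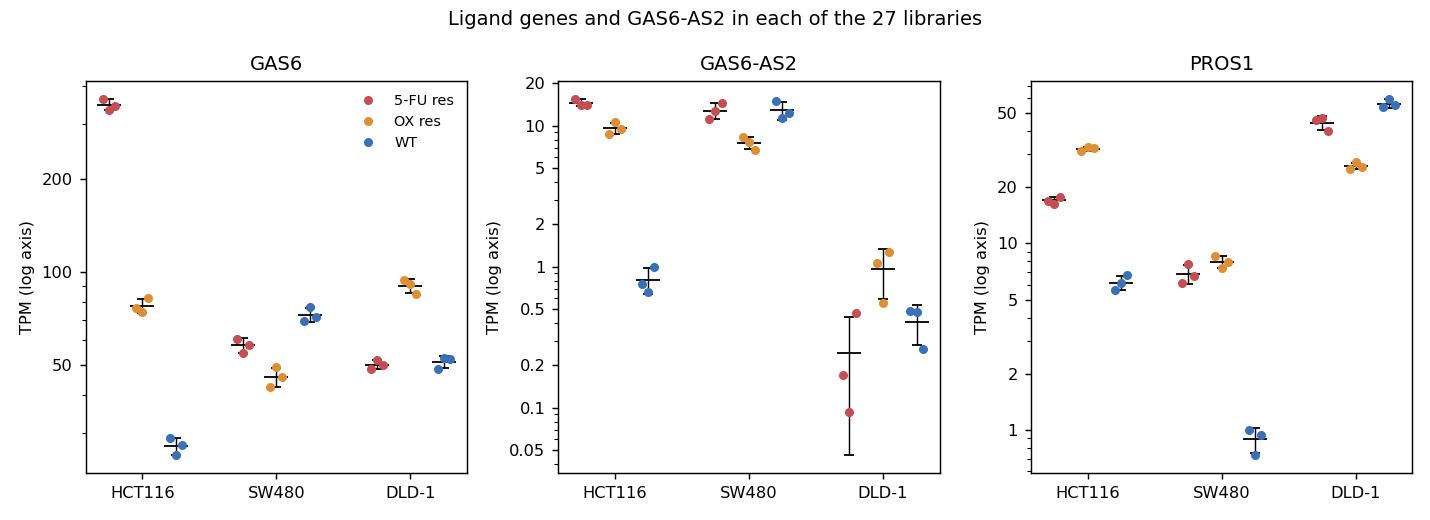
TPM (log axis) of GAS6, GAS6-AS2 and PROS1 in each library (dots) of 5-FU res (red), OX res (orange) and WT (blue) cells of HCT116, SW480 and DLD-1, with black bars for mean and SD (n = 3). GAS6 in HCT116 5-FU res cells (335 to 363 TPM) is above every other library, and PROS1 in SW480 WT cells (0.733 to 0.995 TPM) is below every other library.

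The balance of the ligands differed between the states of each line. GAS6 made up 95.3% ± 0.23 of GAS6 plus PROS1 TPM for 5-FU res and 70.7% ± 1.2 for OX res cells of HCT116, against 81.5% ± 1.8 in WT cells (SD, n = 3). In SW480 it was 89.3% ± 1.6 and 85.1% ± 1.8 in 5-FU res and OX res cells, against 98.8% ± 0.25 in WT cells. In DLD-1 it was 53.1% ± 2.2 and 77.5% ± 1.2 in 5-FU res and OX res cells, against 47.6% ± 0.93 in WT cells. In each line the ranges of the 3 states did not overlap. These shares are ratios within a library, which 1 scaling factor per library leaves as they are.

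Among the receptors, AXL was abundant in HCT116 and SW480 cells and close to absent in DLD-1 cells. In HCT116 it had 89.0, 84.1 and 87.7 TPM in 5-FU res and 76.6, 72.0 and 85.6 TPM in OX res libraries, against 28.4, 29.4 and 29.3 TPM in WT libraries. The 2 resistant sets overlapped, and both stood above WT. The OX res change was 1.39 ± 0.06 (limma adjusted p = 1.1e-09). It was 0.80 above the median gene and fell below the fold threshold under each other scaling, at 0.74 to 0.99.

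SW480 cells had AXL at 94.0, 91.8 and 89.1 TPM in 5-FU res and 59.0, 62.8 and 64.4 TPM in OX res libraries, against 54.8, 42.0 and 47.6 TPM in WT libraries. All 3 groups were apart. The 5-FU res change of 0.92 ± 0.09 (limma adjusted p = 2.8e-06) was just under the fold threshold and passed it, at 1.02, without WT replicate 1. It was 0.48 above the median gene, and 0.42 to 0.65 under the 3 other scalings. The OX res change was 0.37 ± 0.09 (limma adjusted p = 0.0027), the same as the median gene, and its sign turned with FPKM as deposited (-0.06) and with median-of-ratios scaling (-0.07). Between the resistant sets AXL differed by 0.55 ± 0.09 for 5-FU res minus OX res (limma adjusted p = 2.2e-04).

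In DLD-1 cells AXL was 1.76, 1.61 and 1.27 TPM in 5-FU res and 0.825, 0.376 and 0.701 TPM in OX res libraries, against 0.436, 0.823 and 0.545 TPM in WT libraries. The 5-FU res libraries were above the others, which overlapped. The log2 difference of 5-FU res from WT cells was 0.67 ± 0.17, and 1.26 with a pseudocount of 0.1, which weighs such low values more. AXL met the filter through the 5-FU res libraries alone and dropped out of the test in 4 of 18 alternatives, so these values are a description with no test. For OX res the value was 0.03 ± 0.17, and its sign turned under the 3 other scalings.

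TYRO3, the receptor known best from the nervous system, varied least among the members, 2.65-fold between the highest and the lowest group mean. In HCT116 it had 21.7, 19.8 and 21.6 TPM in 5-FU res and 14.0, 12.5 and 14.4 TPM in OX res libraries, against 20.8, 18.7 and 20.8 TPM in WT libraries. Here the 5-FU res and WT libraries overlapped, and OX res libraries were lower. The OX res change was -0.53 ± 0.08 (limma adjusted p = 3.6e-05) and not called. Against the median gene it was -1.13, and the 3 other scalings gave -1.02 to -1.15, all past the threshold. Its sign was thus opposite to that of AXL and MERTK in this contrast.

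SW480 cells had TYRO3 at 35.8, 36.7 and 35.8 TPM in 5-FU res and 23.1, 24.3 and 24.9 TPM in OX res libraries, against 19.1, 16.2 and 17.8 TPM in WT libraries. The groups were apart, with 5-FU res cells highest. The 5-FU res change was 0.99 ± 0.07 (limma adjusted p = 5.4e-07), at the edge of the fold threshold, and 1.04 without WT replicate 1. It was 0.55 above the median gene. The OX res change of 0.43 ± 0.07 (limma adjusted p = 3.8e-04) was 0.06 above the median gene and turned to -0.002 with median-of-ratios scaling and to -0.005 with quantile normalization. DLD-1 libraries lay between 26.0 and 32.6 TPM, with log2 fold changes of -0.15 ± 0.05 for 5-FU res and 0.13 ± 0.05 for OX res cells, the sign of the OX res value turning under the 3 other scalings.

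MERTK, the receptor through which macrophages take up dying cells, was the scarcest receptor in HCT116 and SW480. HCT116 libraries had 3.53, 3.80 and 3.14 TPM in 5-FU res and 5.87, 5.89 and 6.26 TPM in OX res cells, against 1.70, 1.93 and 1.84 TPM in WT cells. The groups were apart, in the same order as for PROS1. In OX res cells the rise was 1.31 ± 0.10 (limma adjusted p = 1.0e-07), 0.71 above the median gene, and 0.54 to 0.80 under the other scalings, below the fold threshold.

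SW480 libraries had MERTK at 2.93, 3.50 and 3.05 TPM in 5-FU res and 2.58, 2.22 and 2.38 TPM in OX res cells, against 1.30, 1.29 and 0.965 TPM in WT cells. Resistant and WT libraries did not overlap. The log2 fold changes were 0.93 ± 0.11 for 5-FU res (limma adjusted p = 2.4e-05) and 0.64 ± 0.11 for OX res cells (limma adjusted p = 4.7e-04), neither called. They were 0.49 and 0.27 above the median gene. Under the other scalings 5-FU res gave 0.33 to 0.60 and OX res 0.17 to 0.36, whereas a pseudocount of 0.1 gave 1.35, past the threshold, and 0.97. In DLD-1 the gene had 7.53, 6.58 and 7.82 TPM in 5-FU res and 8.83, 9.88 and 10.5 TPM in OX res libraries, against 6.60, 6.68 and 6.19 TPM in WT libraries. OX res libraries were highest, with a change of 0.52 ± 0.09 (limma adjusted p = 6.3e-04) that was not called.

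**Figure D3:**
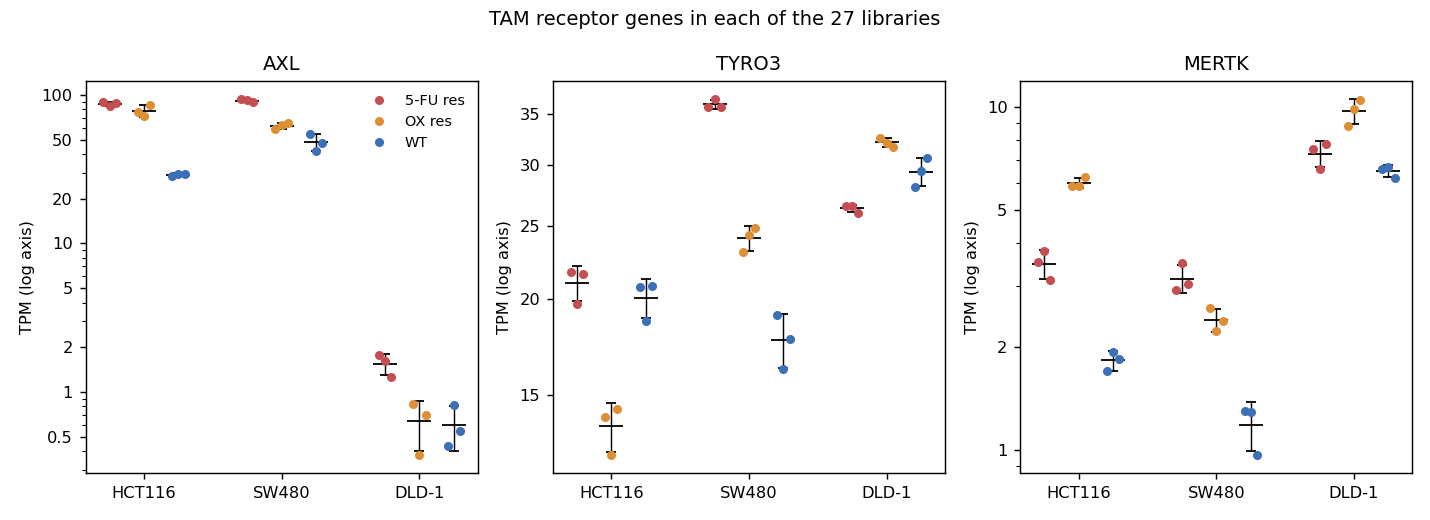
TPM (log axis) of AXL, TYRO3 and MERTK in each library (dots) of 5-FU res (red), OX res (orange) and WT (blue) cells, with black bars for mean and SD (n = 3). AXL in DLD-1 lies at 0.376 to 1.76 TPM, below every library of the other lines, while MERTK is highest in DLD-1 OX res cells (8.83 to 10.5 TPM).

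The makeup of the receptors separated DLD-1 from the other lines. AXL made up 78.0% ± 0.11 of the summed receptor TPM for 5-FU res and 79.9% ± 0.62 for OX res cells of HCT116, against 57.0% ± 1.6 in WT cells (SD, n = 3). In SW480 it was 70.0% ± 0.70 and 70.1% ± 0.36 in 5-FU res and OX res cells, against 71.7% ± 1.1 in WT cells. The receptor sum of SW480 was 131 ± 2.5 and 88.6 ± 3.6 TPM in 5-FU res and OX res cells, against 67.0 ± 7.9 TPM in WT cells. In DLD-1 AXL made up 4.39%, 1.49% and 1.64% in 5-FU res, OX res and WT cells, and TYRO3 held 74.8%, 75.6% and 80.6%. In HCT116 the sum was 111 ± 3.4 and 97.7 ± 8.0 TPM in 5-FU res and OX res cells, against 51.0 ± 0.91 TPM in WT cells. In DLD-1 it was 35.2 ± 0.57 and 42.5 ± 0.35 TPM, against 36.5 ± 1.2 TPM in WT cells.

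**Figure D4:**
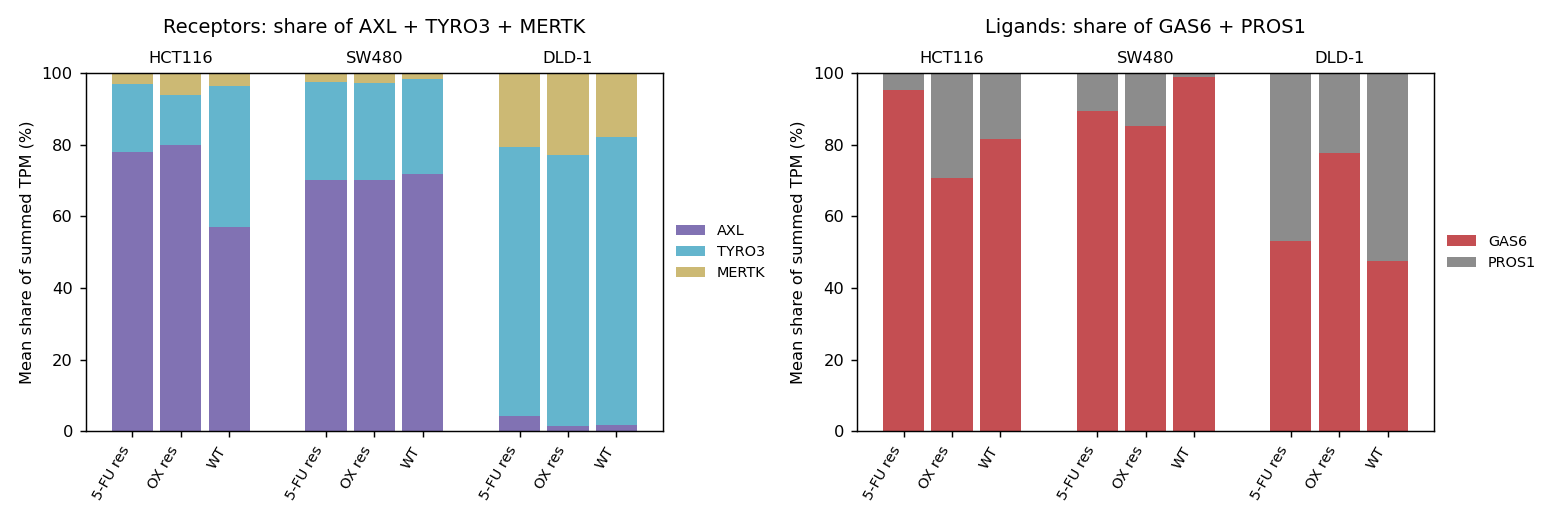
Mean share (%) of AXL, TYRO3 and MERTK in their summed TPM (left) and of GAS6 and PROS1 in theirs (right) for 5-FU res, OX res and WT cells of each line (n = 3 libraries per bar). AXL takes 57.0% to 79.9% of the receptors in HCT116 and SW480 and at most 4.39% in DLD-1, and GAS6 takes 47.6% to 98.8% of the ligands.

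WT cells of each pair of lines differed in some of the members before any drug exposure. In HCT116 WT against SW480 WT cells, 3 of 6 members were called beside 25.1% of 15801 genes: PROS1 was higher by 1.92 ± 0.08, GAS6 was lower at -1.38 ± 0.06 and GAS6-AS2 was lower at -2.94 ± 0.14 (limma adjusted p of 4.7e-15 or less for each). In HCT116 WT against DLD-1 WT cells, 3 of 6 were called beside 34.5% of genes, with AXL at 4.24 ± 0.10, PROS1 at -3.00 ± 0.08 and MERTK at -1.41 ± 0.09. MERTK was below the fold threshold there with FPKM as deposited (-0.91) and with quantile normalization (-0.92). In SW480 WT against DLD-1 WT cells, 4 of 6 were called beside 35.9% of genes, with AXL at 4.94 ± 0.10, GAS6-AS2 (3 to 6 reads per DLD-1 WT library) at 3.30 ± 0.14, PROS1 at -4.92 ± 0.08 and MERTK at -1.78 ± 0.09. GAS6-AS2 met the filter of this fit through HCT116 and SW480 libraries alone, so nothing is read from its call against DLD-1. In HCT116 WT libraries it was below 1 TPM, so its call against SW480 depends on the libraries where it was high. The median of all genes was at -0.31 and -0.32 in the comparisons with DLD-1, and no called member changed sign under another scaling. The HCT116 WT libraries took part in choosing the set, so the GAS6 values that use them are not independent of that choice. The DLD-1 libraries carry names from another number range than those of the other lines, so line and library set cannot be told apart in comparisons with DLD-1.

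Whether a drug-resistant state differed in its effect between lines was tested as an interaction in a fit of all 27 libraries. The HCT116 5-FU res libraries were in the fit, but no contrast of them was tested. The medians of all genes in these 4 contrasts were 0.14 to 0.42. The HCT116 WT libraries took part in choosing the set, so GAS6 differences that involve HCT116 are not independent of that choice. For OX res, HCT116 minus SW480, 3 of 6 members were called beside 19.5% of genes: GAS6 (2.13 ± 0.09), GAS6-AS2 (3.25 ± 0.20) and AXL (1.03 ± 0.15). The AXL value was under the threshold with each other scaling (0.84 to 0.89), and was 0.96 without HCT116 OX res replicate 3, 0.93 without SW480 WT replicate 1 and 0.99 without SW480 OX res replicate 1. TYRO3, at -0.96 ± 0.09, was short of the threshold and past it without HCT116 WT replicate 2 (-1.004) or SW480 WT replicate 1 (-1.01), and under the other scalings (-1.04 to -1.15). The difference of the PROS1 effects of these lines was -0.03 ± 0.11 (limma adjusted p = 0.82), but it was -0.67 (limma adjusted p = 3.0e-04) with a pseudocount of 0.1 and -0.08 to -0.34 under the other scalings. For OX res, HCT116 minus DLD-1, 3 of 6 were called beside 29.1% of genes: PROS1 (3.29 ± 0.11), GAS6-AS2 (2.09 ± 0.20) and AXL (1.37 ± 0.15, and 0.84 to 0.99 under the other scalings). GAS6, at 0.66 ± 0.09, was short of the fold threshold there, and it was at 0.245 to 0.354 under the other scalings. For OX res, SW480 minus DLD-1, 3 of 6 were called beside 14.4% of genes: PROS1 (3.33 ± 0.11), GAS6 (-1.46 ± 0.09) and GAS6-AS2 (-1.16 ± 0.20). For 5-FU res, SW480 minus DLD-1, 2 of 6 were called beside 23.5% of genes: PROS1 (2.40 ± 0.11) and TYRO3 (1.14 ± 0.09, and 0.66 to 0.68 under the other scalings). GAS6-AS2 met the filter of this fit through HCT116 and SW480 libraries alone, with 1 to 14 reads per DLD-1 library, so nothing is read from its calls against DLD-1 and without it 2 members were called in each of the OX res contrasts with DLD-1.

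The order of the 9 groups was different for each member. For GAS6 it ran HCT116 5-FU res (347 ± 14 TPM), DLD-1 OX res (90.0 ± 4.7), HCT116 OX res (77.5 ± 4.1), SW480 WT (72.4 ± 3.8), SW480 5-FU res (57.7 ± 3.1), DLD-1 WT (51.0 ± 2.4), DLD-1 5-FU res (50.0 ± 1.7), SW480 OX res (45.7 ± 3.3) and HCT116 WT (27.3 ± 1.7). Neighbours that overlapped were HCT116 OX res with SW480 WT, DLD-1 WT with DLD-1 5-FU res, and DLD-1 5-FU res with SW480 OX res. AXL ran SW480 5-FU res (91.6 ± 2.4 TPM), HCT116 5-FU res (86.9 ± 2.5), HCT116 OX res (78.1 ± 6.9), SW480 OX res (62.1 ± 2.8), SW480 WT (48.1 ± 6.4), HCT116 WT (29.0 ± 0.56), DLD-1 5-FU res (1.55 ± 0.25), DLD-1 OX res (0.634 ± 0.23) and DLD-1 WT (0.601 ± 0.20). Its overlaps were HCT116 5-FU res with HCT116 OX res and DLD-1 OX res with DLD-1 WT. PROS1 was highest in DLD-1 WT cells and MERTK in DLD-1 OX res cells, and both were lowest in SW480 WT cells.

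Other genes of the pathway were followed in lists. The carboxylation and vitamin K cycle genes, on which ligand activity depends, had 0 of 5 called by limma in all 6 comparisons with WT, with 3 to 5 at an unadjusted p under 0.05 and log2 fold changes of -0.65 to 0.66. Of all genes 3.61% to 33.3% were called in these comparisons. The median of the 5 was 0.12 in HCT116 OX res cells, where the median gene was at 0.60. Receptor shedding genes had 3 of 4 called higher in HCT116 OX res cells (median 1.14): ADAM17 (1.27) and ADAM10 (1.10), the proteases that cut AXL and MERTK from the surface, and RHBDF1 (1.19), which brings ADAM17 to the surface. Of all genes 33.3% were called there, and with median-of-ratios scaling 0 of these 4 were called. Of the SW480 comparisons, 1 of 4 was called higher in 5-FU res (RHBDF1, 1.61) and 2 of 4 in OX res cells (ADAM17, 1.21, and RHBDF1, 1.03), beside 21.2% and 15.0% of all genes. With median-of-ratios scaling these counts were 1 and 0.

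Receptor tyrosine kinases that can pair with AXL went in both directions. MET, the HGF receptor, fell to -2.82 in HCT116 OX res cells as the 1 of 4 called, rose by 1.97 in SW480 5-FU res cells, and had a value of 1.19 in HCT116 5-FU res cells. EGFR rose by 1.63 in SW480 OX res cells and had a value of 1.90 in HCT116 5-FU res cells. In SW480, 2 of 5 were called higher with either drug, and with median-of-ratios scaling 2 for 5-FU res and 1 for OX res cells. Beside these counts, limma called 33.3% of all genes for HCT116 OX res, and 21.2% (5-FU res) and 15.0% (OX res) for SW480. MET in SW480 OX res cells was called at 1.05 but was at 0.50 to 0.67 under the other scalings, and PDGFRB in SW480 5-FU res cells was at 1.26 but at 0.81 to 1.08.

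Of 18 adaptor and signalling genes, 7 were called higher and 0 lower in HCT116 OX res cells (median 0.63, close to the 0.60 of all genes). IRS2, an insulin receptor substrate (2.98), PIK3R1, a regulatory subunit of PI3-kinase (2.64), and PLCG1 (2.15) led them. In SW480 5-FU res cells 5 were called higher, led by SRC (2.14), VAV1 (1.79) and IRS2 (1.43), and in SW480 OX res cells 4 were called higher, led by PIK3CA (1.52), CBL (1.24) and TNS2 (1.10). With median-of-ratios scaling the counts were 5, 2 and 1 of 18, and IRS2 in SW480 5-FU res cells and CBL and TNS2 in OX res cells were under the threshold with each other scaling. Of all genes 33.3%, 21.2% and 15.0% were called in these comparisons. In HCT116 5-FU res cells 3 of 18 values were past both thresholds upward and 1 downward, beside 15.4% of all genes. The upward values included 2.56 for IRS2 and 1.19 for PIK3CA. With median-of-ratios scaling 1 value was past both thresholds in each direction. In DLD-1 limma called 0 of 16 with either drug (11 and 10 at an unadjusted p under 0.05 in 5-FU res and OX res cells). Of all genes 3.88% and 3.61% were called in these DLD-1 sets.

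Engulfment genes had 6 of 10 called higher in HCT116 OX res (median 1.10), 6 of 11 in SW480 5-FU res (median 1.02) and 4 of 11 in SW480 OX res cells (median 0.98), and limma called 0 of 9 in both DLD-1 sets (4 and 6 at an unadjusted p under 0.05 in 5-FU res and OX res cells). ABCA1, a lipid transporter, changed by 2.69, ELMO2 by 2.28 and the adaptor GULP1 by 2.14 in HCT116 OX res cells. MEGF10, a phagocytic receptor, changed by 2.08 and 1.79 and LRP1 by 1.62 and 1.42 in the 5-FU res and OX res sets of SW480. With median-of-ratios scaling the same counts were 4 of 10, 4 of 11 and 2 of 11. All genes tested had medians of 0.60, 0.44 and 0.36 in these comparisons, with 33.3%, 21.2% and 15.0% called. In the 5-FU res and OX res sets of DLD-1, 3.88% and 3.61% of all genes were called. LRP1 in SW480 OX res cells passed the threshold under 1 of the 3 other scalings.

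Genes that expose phosphatidylserine or keep it inside had 4 of 7 called higher in HCT116 OX res cells, with the flippase ATP8A1 at 1.83, the scramblase ANO6 at 1.17 and PLSCR1 at 1.02. The median gene was at 0.60 there with 33.3% of genes called, and ANO6 and PLSCR1 passed the threshold under none of the 3 other scalings. With median-of-ratios scaling the count was 1 of 7. ATP8A1 fell in DLD-1 5-FU res cells (-1.34). Other phosphatidylserine receptors and bridges had 4 of 5 higher in HCT116 OX res cells, led by ADGRB1 (1.45), MFGE8 (1.13) and ITGAV (1.11), none of which passed under another scaling (0 of 5 called with median-of-ratios scaling). In each SW480 set 1 of 4 was called higher, MFGE8 in 5-FU res (1.92) and ITGAV in OX res cells (1.91), and both passed under each scaling. Of all genes 21.2% and 15.0% were called in these SW480 sets. LGALS3, a lectin that also serves as a MERTK ligand, was called at 1.35 for OX res in HCT116 and at 1.36 for 5-FU res in SW480, but was at 0.68 and 0.85 with median-of-ratios scaling. Of the other Gla proteins, PRRG2 fell in HCT116 OX res cells (-1.33) and F10, coagulation factor X, rose in SW480 5-FU res cells (2.58). PRRG1 was called at 1.17 and 1.30 in these sets but passed under none of the 3 other scalings.

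Factors known to act on the AXL promoter had 5 of 9 called higher in HCT116 OX res (TEAD1 1.97, JUN 1.89 and YAP1 1.57 first), 1 of 9 in SW480 5-FU res (TEAD1, 1.01), and 3 of 9 in SW480 OX res cells (TEAD1 1.64, HIF1A 1.50 and SP1 1.20). With median-of-ratios scaling the counts higher were 2, 0 and 2 of 9, with 1 called lower in SW480 OX res cells. YAP1 passed under 1 of the 3 other scalings, and TEAD1 in SW480 5-FU res and SP1 in SW480 OX res cells under none. In DLD-1 the 1 of 9 called was FOSL1 in OX res cells (1.34). Among other growth arrest-specific genes, which share a way of discovery and not a function with GAS6, GAS1 rose in HCT116 OX res cells (1.79), while GAS2 was called there at 1.42 but passed under 1 of the 3 other scalings. GAS5, a non-coding RNA, fell in SW480 5-FU res cells (-1.37), and GAS7 fell in DLD-1 5-FU res (-1.81) and rose in DLD-1 OX res cells (1.82). Counts of these small lists are read beside the share of all genes called and are no test of a list. That share was 33.3% for HCT116 OX res, 21.2% for SW480 5-FU res and 15.0% for SW480 OX res cells. In DLD-1 it was 3.88% for 5-FU res and 3.61% for OX res cells.

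In HCT116 5-FU res cells the tested neighbours of GAS6 lay between -0.41 and 1.16, against 3.62 for GAS6, a value that chose this set. Nothing is read from that gap, because GAS6 was chosen for its rise here and its neighbours were not. Of 14 tested neighbours within 705 kb on chromosome 13, the 1 past both thresholds in 5-FU res cells was RASA3 (1.16), beside 15.4% of all genes. RASA3 starts 331 kb from GAS6, and the 14 had a median of 0.31. TMEM255B, 105 kb on the other side, had -0.12, and GAS6-AS1, which overlaps GAS6 on the opposite strand, had -0.29. In HCT116 OX res cells TMEM255B (2.86) and RASA3 (1.22, and 0.51 to 0.66 under the other scalings) were called higher. That was 2 of 14, beside 33.3% of all genes, while GAS6-AS1 was at 0.07. SW480 5-FU res cells had 3 of 14 higher (F10, TMEM255B at 1.28 and RASA3 at 1.09), beside 21.2% of all genes, and with median-of-ratios scaling 1 of 14, since TMEM255B and RASA3 passed under none of the other scalings. In SW480 OX res cells limma called 0 of 14 (11 at an unadjusted p under 0.05), beside 15.0% of all genes. With median-of-ratios scaling 2 were called lower. In DLD-1 the 1 of 13 called in 5-FU res cells was TMEM255B (1.39), and limma called 0 of 13 in OX res cells (8 at an unadjusted p under 0.05). Of all genes 3.88% and 3.61% were called in these comparisons.

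GAS6-AS1 ranged from 6.12 to 14.3 TPM across HCT116 libraries. Its highest group mean outside HCT116 was 1.34 TPM, in DLD-1 OX res cells. The library kit keeps the strand, but no source used here gives the strand setting of the counting, and reads of GAS6 and GAS6-AS1 in their shared region may not have been told apart. TYRO3P, a processed copy of TYRO3, did not exceed 0.479 TPM and was at 0 in 18 libraries. PROS1 has a near copy, PROS2P, for which no value was used here, and shared reads could have been counted to PROS1.

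**Figure D5:**
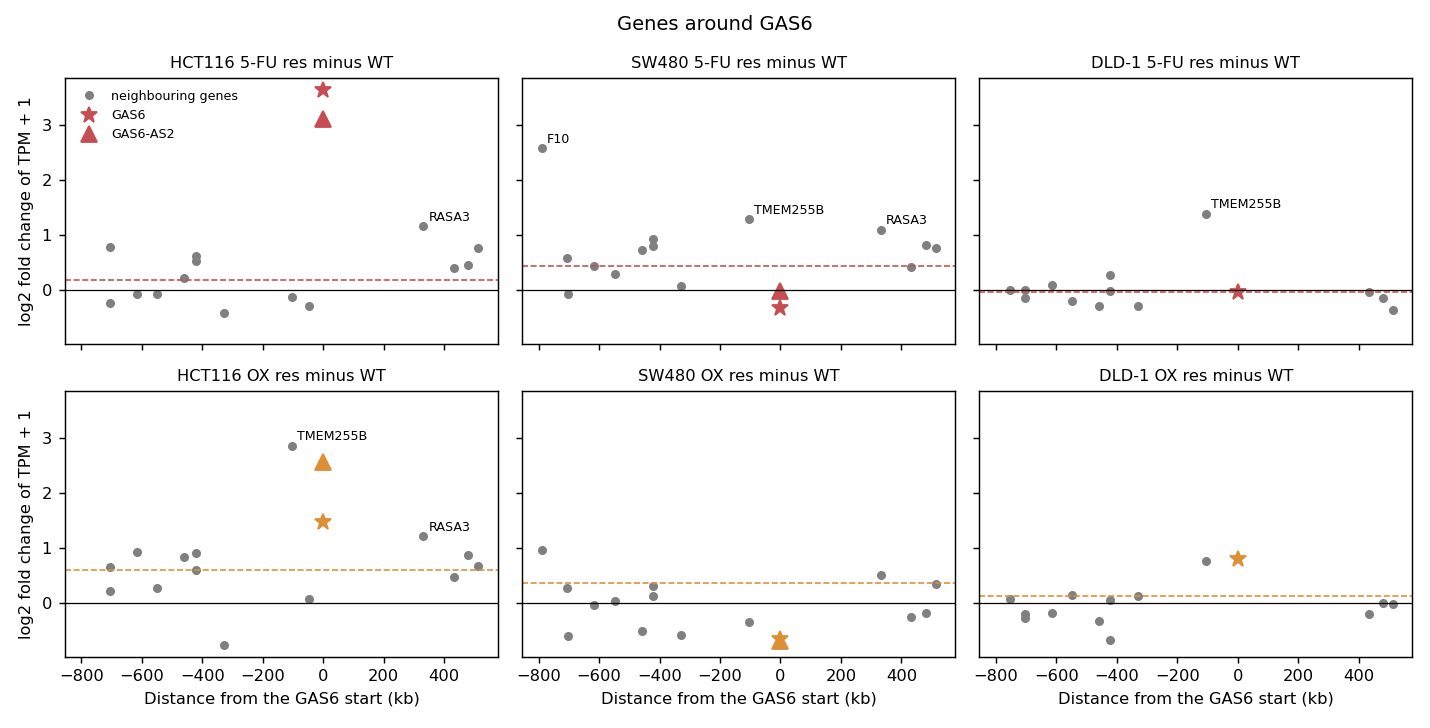
Log2 fold change of TPM + 1 of GAS6 (star), GAS6-AS2 (triangle) and their tested neighbours (grey) against distance from the GAS6 start (kb), with 5-FU res minus WT above and OX res minus WT below for each line. Dashed lines show the median of all genes tested. In HCT116 5-FU res cells, the contrast that chose the members, GAS6 is at 3.62, GAS6-AS2 at 3.11 and the neighbours at -0.41 to 1.16.

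The genes most like GAS6 over the 27 libraries, by Pearson r of log2(TPM + 1) among 15795 genes, were OR51B6 (0.87), DNAH5 (0.86), B4GALT6 (0.84) and ESRG (0.83). All 4 had their highest mean in HCT116 5-FU res cells, from 1.44 TPM for DNAH5 to 21.8 TPM for ESRG, and their Spearman rho was 0.36 to 0.65. GAS6 was by far highest in that group, which chose the set, and this correlation picks genes that peak with it. Nothing is read from the shared peak. The genes most like AXL were ZNF512 (0.993), ZNF559 (0.989), KCNJ12 (0.987), SMARCA1 (0.986) and FNBP1 (0.985). Their lowest group means were at 0.121 TPM or less and lay in DLD-1, the line with the least AXL. Between members, the 27 libraries gave r = 0.90 for MERTK with PROS1, 0.87 for AXL with GAS6-AS2 and 0.22 for AXL with GAS6. Within HCT116, SW480 and DLD-1 (9 libraries each) the values were 0.985, 0.909 and -0.939 for MERTK with PROS1, 0.990, 0.129 and -0.466 for AXL with GAS6-AS2, and 0.856, -0.379 and -0.431 for AXL with GAS6. In DLD-1 all 3 were below 0, unlike the value over 27 libraries. Libraries of a line share their origin, and these values are a description. The values over 27 libraries and within HCT116 include the 5-FU res libraries that chose the set.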

How the data were processed

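Stranded mRNA libraries (TruSeq) of 27 samples were sequenced as single reads (DNBSEQ-G400). After trimming, the authors aligned reads to hg19 with TopHat2 2.1.1 (Bowtie2 2.2.8, SAMtools 0.1.18) and deposited FPKM, made with Cufflinks according to the methods and with Cuffdiff 2.2.1 according to the submitters' processing notes. No source used here gives the options or the reads per library, and precision rests on replicate spread. FPKM were divided by the library sum to give TPM. Tests used log2(TPM + 1) and limma 3.58.1 in R 4.3.3 (lmFit and eBayes with trend) on genes that reached 1 TPM in 3 or more libraries of a fit, which held the 9 libraries of a line, or all 27 for differences between lines. The study's Wilcoxon test cannot pass with 3 against 3 libraries. Fold changes on this scale understate changes of low genes. Python 3.11.15, numpy 2.4.6, pandas 2.3.3 and matplotlib 3.10.9 were used, and the fits were tested on simulated data. Positions are from GENCODE lifted to GRCh37 and promoter windows from RefSeq (GRCh38.p14), which held all 6 members.

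Members and lists were chosen with earlier results of these data known. Named were all members, at most the 3 largest called genes per list and comparison, and the 5 genes most like AXL and 4 most like GAS6. Some results are not reported here. Alternatives were each library left out, a replicate block, fits of only the 2 groups compared, eBayes without trend, a pseudocount of 0.1, no filter or a mean of 5 TPM, Spearman correlation, and FPKM as deposited, median-of-ratios scaling or quantile normalization in place of TPM.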

Additional observations from a re-analysis of the deposited data

Results flagged for a closer look

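For 11 combinations of a member and a pair of lines, the effect of a resistant state differed between lines by the interaction test in limma (adjusted p under 0.05 and a difference beyond 1 on the log2 scale). For OX res against WT cells, HCT116 minus SW480, the differences were 2.13 for GAS6, 3.25 for GAS6-AS2 and 1.03 for AXL. For OX res, HCT116 minus DLD-1, they were 2.09 for GAS6-AS2, 3.29 for PROS1 and 1.37 for AXL. For OX res, SW480 minus DLD-1, they were -1.46 for GAS6, -1.16 for GAS6-AS2 and 3.33 for PROS1. For 5-FU res, SW480 minus DLD-1, they were 2.40 for PROS1 and 1.14 for TYRO3. GAS6-AS2 rested on 1 to 14 reads per library in DLD-1 cells and met the filter only through the other lines, so nothing is read from its differences against DLD-1. The AXL and TYRO3 differences were under the fold threshold with each other scaling. The GAS6 difference of 2.13 used the HCT116 WT libraries, which took part in choosing the set.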

How the results depend on the processing

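Of 2379 member values recomputed under the alternatives, 1569 with a library left out and 694 with another setting were counted as unchanged. That meant the same direction and side of the threshold. For HCT116 5-FU res cells against the other HCT116 groups it meant a move smaller than the pooled SD of the groups compared. Each library was left out for every contrast of its fit, also for contrasts that do not use its group. There the estimate could not move, so 1569 is no measure of stability. Leaving out 1 library gave GAS6-AS2 in SW480 5-FU res cells -0.10 to 0.10, AXL in DLD-1 OX res cells -0.06 to 0.15, and the difference of the PROS1 effect of OX res between HCT116 and SW480 -0.085 to 0.029. Signs turned for values that were not called. With FPKM as deposited these were AXL in SW480 OX res (-0.058) and DLD-1 OX res (-0.014), TYRO3 in DLD-1 OX res (-0.013), and, SW480 minus DLD-1, the OX res effects of AXL (-0.044) and MERTK (-0.049) and the 5-FU res effect of GAS6-AS2 (-0.311). With median-of-ratios scaling they were AXL (-0.074) and TYRO3 (-0.002) in SW480 OX res, AXL (-0.023) and TYRO3 (-0.010) in DLD-1 OX res, and, SW480 minus DLD-1, the OX res effect of AXL (-0.028) and the 5-FU res effects of GAS6-AS2 (-0.274) and AXL (-0.180). With quantile normalization they were TYRO3 in SW480 OX res (-0.005), AXL (-0.018) and TYRO3 (-0.051) in DLD-1 OX res, and, SW480 minus DLD-1, the OX res effect of MERTK (-0.142) and the 5-FU res effects of GAS6-AS2 (-0.318) and AXL (-0.033). With a pseudocount of 0.1 the 5-FU res effect of AXL, SW480 minus DLD-1, was -0.321. The cause was not tested.

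Counts of genes called moved by over 1.5 times in HCT116 OX res cells (4667) to 2804 with FPKM as deposited and 2600 with quantile normalization, and in SW480 5-FU res cells (2976) to 1859 and 1865. In SW480 OX res cells (2101) they moved to 1098, 1196, 1381 with median-of-ratios scaling and 3181 with a pseudocount of 0.1. DLD-1 OX res cells (486) gave 295 with FPKM as deposited, 302 with a mean TPM of 5 or more and 734 with a pseudocount of 0.1, and DLD-1 5-FU res cells (523) gave 856 with that pseudocount. Between resistant sets, SW480 (1558) gave 1021 with a mean TPM of 5 or more and DLD-1 (1148) gave 759 with FPKM as deposited. For differences of effects, 3083 (OX res, HCT116 minus SW480) moved to 2047 with a mean TPM of 5 or more, 2281 (OX res, SW480 minus DLD-1) to 3594 with a pseudocount of 0.1, and 3710 (5-FU res, SW480 minus DLD-1) to 2354 with FPKM as deposited.

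Replicate numbers did not pair the libraries: the deviations of same-numbered libraries correlated at -0.157 to 0.162, above 0.1 in 6 of 27 pairs. With the replicate block 4667 genes were called in HCT116 OX res cells (4667 without it) and 2983 in SW480 5-FU res cells (2976 without it), and no call of a member changed. With Spearman correlation, none of the 4 genes named as most like GAS6 or of the 5 most like AXL stayed among the first 5. Precision was limited by 3 libraries per group and, for GAS6-AS2 in DLD-1 cells and AXL there, by low expression.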
